A study of Mus musculus with 6 samples.

Results

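Cholesterol and fatty acids are made in the cytosol and endoplasmic reticulum from acetyl-CoA. The mevalonate branch turns acetyl-CoA into isoprenoid units, the sterol branch joins these into squalene and converts squalene to cholesterol, and the fatty acid branch builds, elongates and desaturates acyl chains. Transcription of most of these enzymes is driven by the sterol regulatory element binding proteins encoded by Srebf1 and Srebf2, which the escort protein Scap carries out of the endoplasmic reticulum when sterols are low and the Insig proteins hold back when sterols are abundant. In dendritic cells (DCs), the antigen-presenting cells of the immune system, these lipids serve membrane growth, lipid droplets and the prenylation of small GTPases.

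The 35 genes considered here were listed by symbol for their place in these pathways, and 33 of them had a probe set with a single gene symbol among the 12394 genes of the array. The other 2, Acat2 and Insig1, were not analysed here. The mevalonate branch held 7 measured genes, the sterol branch 12, the fatty acid branch 9, and sterol sensing and transport 5. Where a gene had several probe sets, the one brightest on average across the 6 arrays stood for it, and 13 of the 33 had 1 probe set.

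RNA was taken from conventional DCs of BALB/c mice, an inbred strain, that had been sorted as CD11c-positive cells from spleen (3 arrays) and from lymph nodes (3 arrays). The labels name no genetic change and no treatment, give neither the age of the mice nor which lymph nodes were taken, and do not tell how many animals an array stands for. The p-values below therefore rest on array-to-array spread alone, and part or all of that spread may be technical. The median of an array was 39.4 to 41.3 intensity units, and precision is limited by the small number of arrays. All 6 measured markers of conventional DCs were well expressed, with group means of at least 7.69 on the log2 scale. However, all 6 were lower in the spleen arrays without overlap, against 12.7% of all genes. Itgax, the gene of CD11c itself, passed the test described below, which called 1.37% of all genes lower. Migratory DCs are the cells that carry antigen from tissues to lymph nodes. Of their 6 measured genes, the same test called 5 higher in spleen arrays, against 2.03% of all genes, and 0 lower. Their summed intensities were 3846 to 5658 in spleen arrays and 982.5 to 1461 in lymph node arrays. That direction goes against the organ labels, so the groups are called spleen and lymph node arrays here, as labelled. Whether the organ labels were exchanged was not tested, and an exchange would turn the sign of every difference, call and branch median given below. In sorted bulk RNA, fewer cells of a type and less RNA per cell cannot be told apart.

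Sterol and fatty acid synthesis genes were higher in the spleen arrays at a few steps of the pathway, while at others the arrays of the 2 organs overlapped. Idi1 was 3.63-fold higher, Elovl6 3.19-fold, Sqle 2.55-fold, Hmgcs1 1.76-fold and Fdft1 1.75-fold, and these 5 of the 33 genes passed limma's moderated test at a Benjamini-Hochberg adjusted p of 0.05 over all genes. Of all 12394 genes, 2.03% were called higher by this test. None of the 33 was called lower, against 1.37% of all genes. At an unadjusted p under 0.05 in limma, 11 of the 33 were higher, against 1152 of all 12394 genes. At the same cut 1 of the 33, Ebp, was lower, against 1208 of all 12394 genes. Without regard to the test, all 3 spleen arrays lay above all 3 lymph node arrays for 13 of the 33 genes, against 11.8% of all genes, and below them for 1, Lbr, against 12.7% of all genes. The median log2 difference, spleen minus lymph node, was 0.33 over the 33 genes and -0.01 over all genes. By branch it was 0.33 for mevalonate, 0.38 for sterol, 0.71 for fatty acid genes and -0.08 for sterol sensing and transport. The mevalonate median was the value of Mvd and the fatty acid median that of Scd1, and both genes overlapped between the groups. With genes under the median level of all genes left out, the medians were 0.21, 0.46, 0.14 and 0.06 in the same order. Leaving out lymph node array 1, 2 or 3 gave 2, 1 and 2 genes in place of 5. Of all genes, these fits called 41, 33 and 203 higher in place of 251. Leaving out spleen array 1, 2 or 3 gave 2, 2 and 4, with 90, 215 and 296 of all genes called higher.

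**Figure D1:**
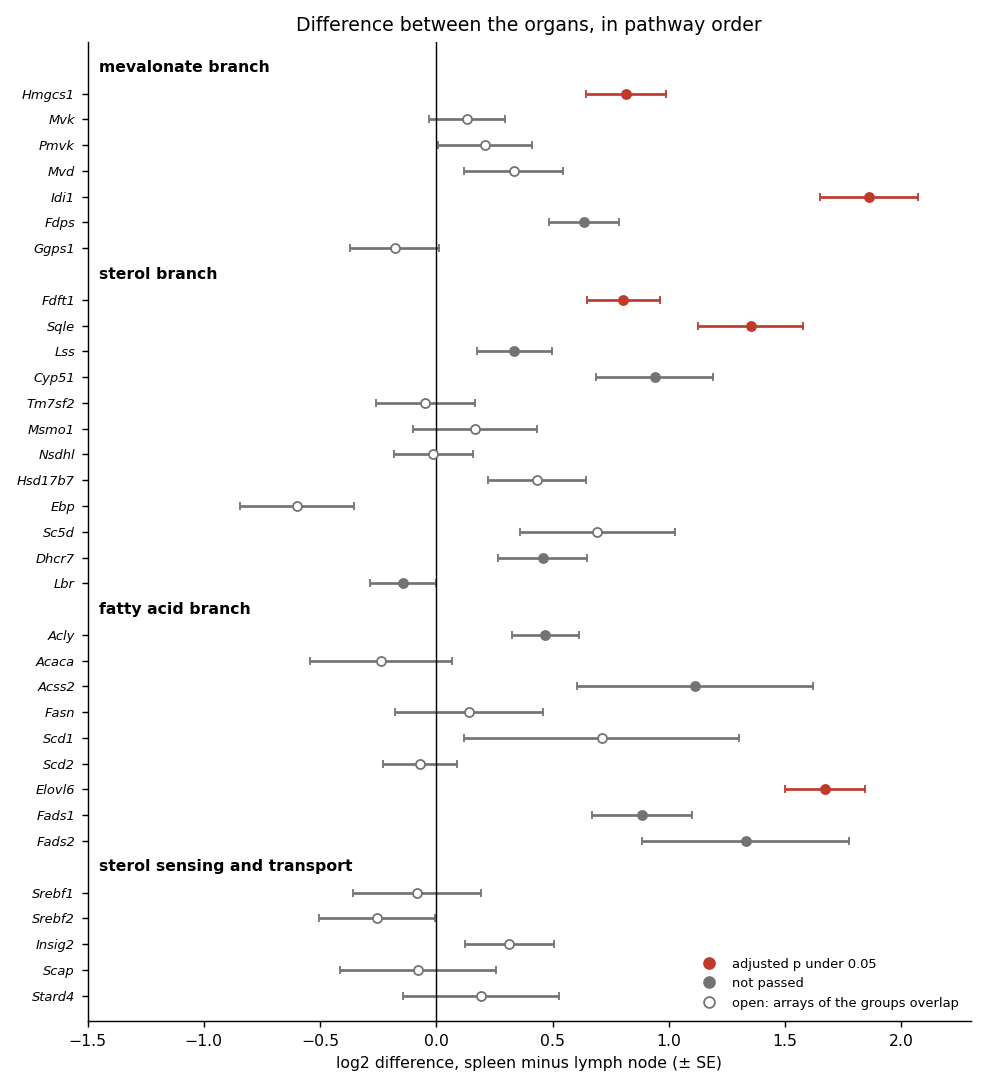
Log2 difference between spleen and lymph node arrays (x axis, with its standard error) for each of the 33 genes in pathway order, with filled red points for the 5 genes past an adjusted p of 0.05 and open points where the arrays of the groups overlap. The differences ran from -0.60 for Ebp to 1.86 for Idi1, and the 5 genes of sterol sensing and transport lay between -0.26 and 0.31.

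The promoter sequences of Hmgcs1, Idi1 and Elovl6 are shown because these are the genes past the threshold that had an entry in the RefSeq promoter table of GRCm38.p6, and because they differ in the motifs known from sterol-regulated promoters. Each sequence is the 250 bases before the start of the gene, on the plus strand. Capitals mark TCACNCCAC, a form of the sterol response element, and CCAAT, the letters bound by the factor NF-Y, on either strand.
Hmgcs1 at chr13:119690101-119690350: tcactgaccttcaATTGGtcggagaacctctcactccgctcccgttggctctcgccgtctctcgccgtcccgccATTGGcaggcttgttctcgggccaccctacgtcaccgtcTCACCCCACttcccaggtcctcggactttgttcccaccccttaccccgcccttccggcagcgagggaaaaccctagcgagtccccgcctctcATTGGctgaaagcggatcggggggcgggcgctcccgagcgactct
Idi1 at chr13:8885356-8885605: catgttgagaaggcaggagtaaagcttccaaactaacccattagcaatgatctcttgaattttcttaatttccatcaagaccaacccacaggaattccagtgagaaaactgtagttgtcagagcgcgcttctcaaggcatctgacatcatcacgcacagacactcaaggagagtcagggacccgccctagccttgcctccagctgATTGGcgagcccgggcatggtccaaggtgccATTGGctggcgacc
Elovl6 at chr3:129532136-129532385: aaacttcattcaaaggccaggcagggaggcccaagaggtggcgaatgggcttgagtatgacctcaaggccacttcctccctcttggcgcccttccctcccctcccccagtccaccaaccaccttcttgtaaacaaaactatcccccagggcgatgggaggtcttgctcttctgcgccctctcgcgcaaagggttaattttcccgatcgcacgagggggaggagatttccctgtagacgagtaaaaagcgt
The Hmgcs1 sequence held 1 TCACNCCAC and 3 CCAAT, the Idi1 sequence 2 CCAAT, and the Elovl6 sequence neither.

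Of the 33 genes, 26 had a promoter in the table. CCAAT on either strand occurred in at least 1 listed promoter of 21 of these 26 genes (80.8%), against 39.8% of the 9888 genes of the array with a promoter. It was found in 6 of 6 mevalonate, 10 of 10 sterol, 3 of 4 sensing and 2 of 6 fatty acid genes. It was therefore present alike in Idi1 and Hmgcs1, which passed the test, and in Nsdhl, Tm7sf2 and Ebp, which did not. TCACNCCAC occurred in 1 of the 26 genes, Hmgcs1, and in 1.29% of the genes of the array. The letters GGGCGG, known as the GC box, occurred in 21 of the 26 and in 57.0% of the genes of the array. The E-box type TCACGTGA occurred in 0 of the 26, against 1.46% of the genes of the array. A match is a match of letters only.

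In the mevalonate branch, 2 of 7 genes were called higher in spleen arrays, against 2.03% of all genes, and 0 lower. Of the 7 differences, 6 were positive. Idi1 encodes the isomerase that interconverts the isoprenoid building blocks isopentenyl and dimethylallyl diphosphate. Its log2 intensity was 10.27, 9.67 and 9.60 in spleen arrays, against 8.09, 7.91 and 7.97 in lymph node arrays. All spleen values were above all lymph node values, and the gap between the groups was wider than the spread within either. The log2 difference was 1.86 ± 0.21 (SE, adjusted p = 0.00762 in limma), and its second probe set, nearly as bright, differed by 1.60. The call was kept in 5 of 6 fits with 1 array left out and ended when lymph node array 2 was left out (adjusted p = 0.0560).

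Hmgcs1 encodes the synthase that makes hydroxymethylglutaryl-CoA, the first committed compound of the branch. Its values were 9.98, 10.03 and 10.28 in spleen arrays, against 9.18, 9.48 and 9.18 in lymph node arrays, without overlap. The log2 difference was 0.82 ± 0.17 (SE, adjusted p = 0.0477 in limma), just inside the threshold, and all 4 of its probe sets were positive, at 0.44 to 0.82. The call was lost in each of the 6 fits with 1 array left out (adjusted p 0.0727 to 0.202), with differences of 0.72 to 0.92. It was also lost after a second quantile normalization (adjusted p = 0.0502) and with averaged probe sets (0.0652).

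Fdps, the synthase of farnesyl diphosphate that feeds both sterols and prenylated proteins, was measured at 5.59, 5.63 and 5.42 in spleen arrays, against 4.86, 4.99 and 4.87 in lymph node arrays. The groups did not overlap, but the difference of 0.63 ± 0.15 (SE) did not pass (adjusted p = 0.0660 in limma), and its second, dim probe set differed by -0.24. With 16 added to each value before log2, Fdps did pass (adjusted p = 0.0439). The kinases and the decarboxylase between Hmgcs1 and Idi1 overlapped between the groups. Mvk had a log2 difference of 0.13, Pmvk of 0.21 and Mvd of 0.33, the last at 5.33, 5.65 and 5.58 in spleen arrays and 5.53, 5.20 and 4.84 in lymph node arrays. The other probe set of Mvk, nearly as bright, differed by -0.14, and that of Mvd by -0.21. Ggps1, which makes geranylgeranyl diphosphate for protein prenylation and not for sterols, had the lowest difference of the branch, at 7.42, 7.16 and 7.07 in spleen arrays and 7.55, 7.54 and 7.10 in lymph node arrays. Its difference was -0.18 ± 0.19 (SE), and its 4 probe sets had both signs, from -0.22 to 0.23. The branch median of 0.33 became 0.50 when lymph node array 1 was left out and 0.22 when lymph node array 3 was.

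In the sterol branch, 2 of 12 genes were called higher in spleen arrays, against 2.03% of all genes, and 0 lower. Of the 12 differences, 8 were positive. Sqle encodes squalene epoxidase, a rate-limiting enzyme of cholesterol synthesis. Its log2 intensity was 6.90, 6.83 and 6.17 in spleen arrays, against 5.42, 5.20 and 5.22 in lymph node arrays. Spleen array 3 was the lowest of its group and still lay above every lymph node array. The log2 difference was 1.35 ± 0.22 (SE, adjusted p = 0.0264 in limma). Sqle passed in 1 of the 6 fits with 1 array left out, that without spleen array 3 (adjusted p = 0.00896), and in the other 5 the adjusted p was 0.0554 to 0.123.

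Fdft1, the squalene synthase that commits farnesyl diphosphate to sterols, had values of 7.17, 7.24 and 7.16 in spleen arrays, against 6.29, 6.57 and 6.30 in lymph node arrays. The spleen arrays lay close together and above the others. The log2 difference was 0.80 ± 0.16 (SE, adjusted p = 0.0387 in limma), while its 3 dimmer probe sets differed by 0.64, 0.25 and -0.01. The brightest probe set carries a suffix that Affymetrix gives to designs that may cross-hybridise. With such probe sets left out the gene did not pass (adjusted p = 0.148), nor with averaged probe sets (0.161), nor in any of the 6 fits with 1 array left out (0.0534 to 0.181).

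In their brightest probe sets, Lss, the cyclase that forms lanosterol, and Cyp51, the demethylase that acts on it, also had separated groups without passing. Cyp51 had values of 9.24, 9.04 and 8.29 in spleen arrays, against 7.93, 7.92 and 7.90 in lymph node arrays. The lymph node arrays were almost identical and spleen array 3 was again the lowest of its group. The difference was 0.94 ± 0.25 (SE, adjusted p = 0.0903 in limma), with 0.87 and 0.90 in its other probe sets, and Cyp51 passed without spleen array 3 (1.22, adjusted p = 0.0160). Lss differed by 0.34 ± 0.16 (SE, adjusted p = 0.320), with 0.24 and, in a dim probe set, -0.35 elsewhere. With averaged probe sets the Lss difference was 0.08 (adjusted p = 0.869 in limma).

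The enzymes after Cyp51 showed no common direction. Tm7sf2, a sterol reductase, Nsdhl, a sterol dehydrogenase, and Msmo1, a methylsterol oxidase, differed by -0.05, -0.01 and 0.17, and each overlapped between the groups. Hsd17b7, the ketoreductase that works with Nsdhl, differed by 0.43, and Sc5d, a sterol desaturase, by 0.69 ± 0.33 (SE, adjusted p = 0.316 in limma) with overlap. Dhcr7, the reductase that makes cholesterol from its immediate precursor, was measured at 6.92, 6.85 and 7.36 in spleen arrays, against 6.55, 6.73 and 6.46 in lymph node arrays. These values did not overlap, and the difference was 0.46 ± 0.19 (SE, adjusted p = 0.246).

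Ebp, the isomerase that moves the sterol ring double bond, had the lowest difference of all 33 genes. Its values were 6.32, 5.74 and 6.21 in spleen arrays, against 6.77, 7.01 and 6.29 in lymph node arrays, so that spleen array 1 lay just above lymph node array 3. The difference was -0.60 ± 0.24 (SE, adjusted p = 0.237 in limma). Lbr, a sterol reductase that is also the lamin B receptor of the nuclear envelope, was at 462.6, 431.8 and 452.4 on the deposited linear intensity scale in spleen arrays and 488.6, 513.1 and 485.6 in lymph node arrays. This was a log2 difference of -0.14 ± 0.14 (SE, adjusted p = 0.665) without overlap.

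**Figure D2:**
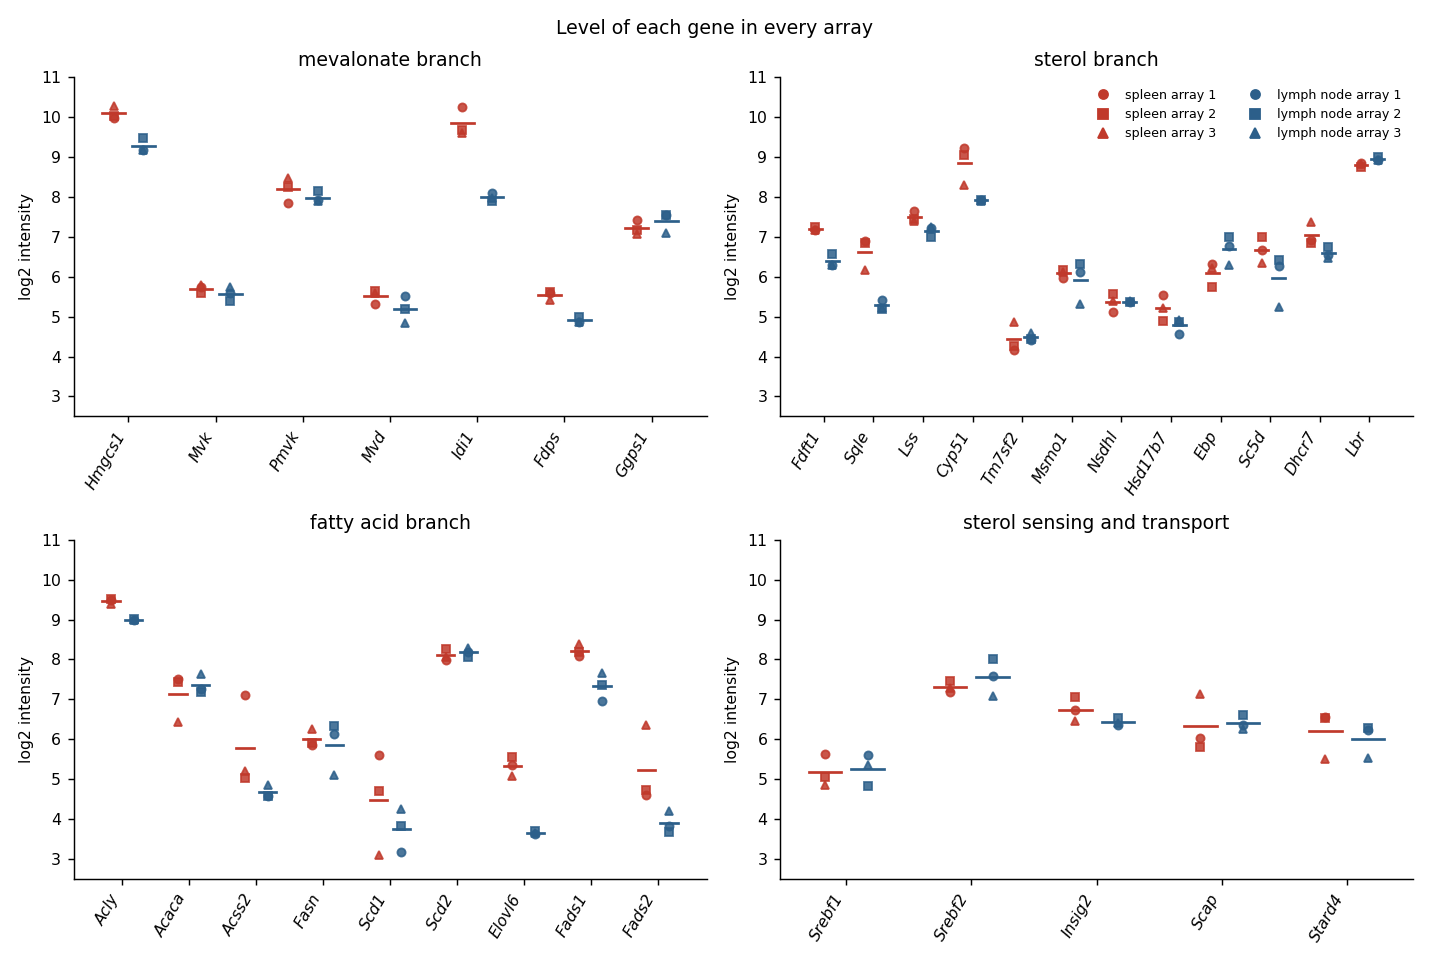
Log2 intensity (y axis) of each gene in every array, spleen in red and lymph node in blue, with the array number as the marker shape and a line at each group mean. For Idi1, Sqle, Fdft1, Hmgcs1 and Elovl6 the 3 spleen arrays lie above the 3 lymph node arrays, while the values of Acss2, Scd1 and Fads2 spread widely among the spleen arrays.

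In the fatty acid branch, 1 of 9 genes was called higher in spleen arrays, against 2.03% of all genes, and 0 lower. All spleen arrays lay above all lymph node arrays for 5 of 9, against 11.8% of all genes. Elovl6 encodes the elongase that extends saturated and monounsaturated chains made by fatty acid synthase. Its log2 intensity was 5.36, 5.55 and 5.08 in spleen arrays, against 3.62, 3.71 and 3.64 in lymph node arrays. The lymph node values lay together near the low end of the scale and well below every spleen array. The log2 difference was 1.67 ± 0.17 (SE, adjusted p = 0.00582 in limma), and of the 33 genes it was the only one past the threshold in all 6 fits with 1 array left out (adjusted p 0.00634 to 0.0472). Its dimmer probe set differed by 0.42, and with log2 of the value plus 16 the difference was 0.98 and passed.

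The genes that supply cytosolic acetyl-CoA were separated between the groups but did not pass. Acly, the ATP citrate lyase, had values of 9.49, 9.51 and 9.39 in spleen arrays, against 8.98, 9.02 and 8.98 in lymph node arrays. Both groups were tight, and the difference was 0.47 ± 0.14 (SE, adjusted p = 0.125 in limma). With 16 added before log2, Acly did pass (adjusted p = 0.0340). Its difference was -0.17 when probe sets with cross-hybridising suffixes were left out, and the 5 probe sets of Acly ran from -0.17 to 0.47. Acss2, which activates acetate, had 7.12, 5.02 and 5.21 in spleen arrays, against 4.57, 4.58 and 4.85 in lymph node arrays. Spleen array 1 set the size of this difference, which was 1.11 ± 0.51 (SE, adjusted p = 0.290) with it and 0.44 without it.

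The desaturases of polyunsaturated fatty acids both had higher values in spleen arrays. Fads1 had 8.08, 8.18 and 8.38 in spleen arrays, against 6.95, 7.36 and 7.67 in lymph node arrays, a difference of 0.88 ± 0.22 (SE, adjusted p = 0.0705 in limma). Fads2 had 4.61, 4.72 and 6.36 in spleen arrays, against 3.82, 3.68 and 4.19 in lymph node arrays, a difference of 1.33 ± 0.44 (SE, adjusted p = 0.156) that was 0.77 without spleen array 3. Neither gene overlapped between the groups and neither passed, though Fads1 did when genes under the median level were left out (adjusted p = 0.0470). In Fads2, spleen array 3 stood far above the other two.

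For the desaturases of monounsaturated fatty acids and the central enzymes of chain synthesis, the arrays of the groups overlapped. Scd2 was at 255.2, 308 and 265.1 on the deposited linear intensity scale in spleen arrays and 290.0, 267.5 and 311.8 in lymph node arrays, a log2 difference of -0.07 ± 0.16 (SE). Scd1, a dim gene here, had 5.60, 4.71 and 3.09 in spleen arrays and 3.19, 3.82 and 4.26 in lymph node arrays, so that spleen array 3 was the lowest of all 6 arrays, and its difference of 0.71 ± 0.59 (SE) did not pass (adjusted p = 0.589 in limma). The Scd1 difference was 1.40 without spleen array 3 (adjusted p = 0.0952) and 0.14 without spleen array 1 (0.941). Fasn, fatty acid synthase, had 5.85, 5.90 and 6.26 in spleen arrays and 6.14, 6.33 and 5.12 in lymph node arrays, a difference of 0.14 ± 0.32 (SE) that was -0.23 without lymph node array 3. Acaca, the acetyl-CoA carboxylase that makes its substrate, had the lowest difference of the branch, with 7.50, 7.45 and 6.42 in spleen arrays and 7.26, 7.18 and 7.65 in lymph node arrays (-0.24 ± 0.31 SE). Spleen array 3 set its sign, and without that array the Acaca difference was 0.11. The branch median of 0.71 was 0.46 without lymph node array 1, 0.44 without spleen array 1 and 0.14 among the genes kept by a filter at the median level, which removed 4 of the 9 genes, Elovl6 among them.

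None of the 5 genes of sterol sensing and transport passed in limma, and 0 of them had an unadjusted p under 0.05. Srebf2, the regulator known mainly for sterol genes, had 7.17, 7.47 and 7.27 in spleen arrays and 7.58, 8.02 and 7.08 in lymph node arrays, a difference of -0.26 ± 0.25 (SE, adjusted p = 0.652). Srebf1, known mainly for fatty acid genes, had 5.63, 5.04 and 4.85 in spleen arrays and 5.61, 4.82 and 5.35 in lymph node arrays, a difference of -0.08 ± 0.28 (SE, adjusted p = 0.913). Both regulators overlapped between the groups, and their transcript level says nothing of the processing of the proteins. Scap had 6.04, 5.81 and 7.14 in spleen arrays and 6.36, 6.62 and 6.26 in lymph node arrays, with spleen array 3 above all others and a difference of -0.08 ± 0.34 (SE). Insig2, the retention partner of Scap, had 6.72, 7.06 and 6.45 in spleen arrays and 6.36, 6.52 and 6.40 in lymph node arrays (0.31 ± 0.19 SE, adjusted p = 0.440). Stard4, a cytosolic sterol carrier, had 6.56, 6.54 and 5.51 in spleen arrays and 6.23, 6.28 and 5.53 in lymph node arrays (0.19 ± 0.34 SE). Its dimmer probe set differed by 0.83, and with averaged probe sets the difference was 0.51 (adjusted p = 0.549 in limma). In both organs array 3 was the low one for Stard4.

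**Figure D3:**
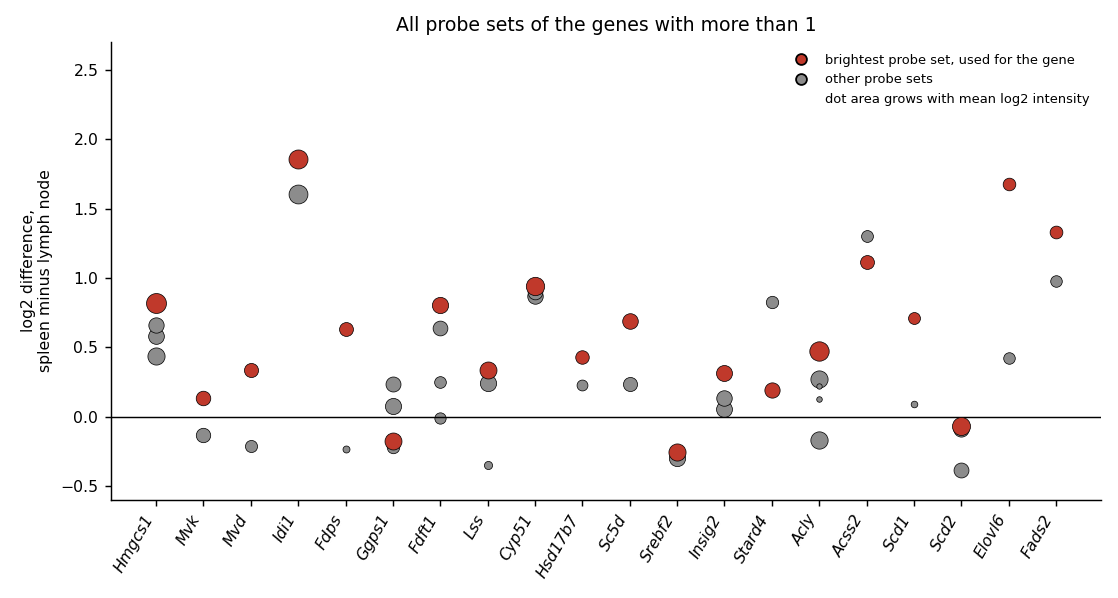
Log2 difference between spleen and lymph node arrays (y axis) for every probe set of the 20 genes with more than 1, the brightest in red and the others in grey, with dot area growing with mean log2 intensity. Of these 20 genes, 13 had the same sign in all probe sets, and of the 4 such genes past the threshold Fdft1 was the one with a probe set of the other sign, at -0.01.

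Genes of neighbouring pathways were set beside them. Over 6 measured genes of sterol uptake and processing the median log2 difference was -0.20. Of these genes 1 was called higher in spleen arrays, against 2.03% of all genes, and 0 lower, against 1.37%. The gene was Npc2, which binds cholesterol in the lysosome, with 10.43, 10.69 and 10.73 in spleen arrays, against 9.68, 9.94 and 9.68 in lymph node arrays (0.85 ± 0.17 SE, adjusted p = 0.0402 in limma), and its call was lost in each of the 6 fits with 1 array left out. Lipa, the lysosomal acid lipase that frees cholesterol from its esters, had 7.86, 8.69 and 7.70 in spleen arrays, against 9.10, 9.41 and 8.88 in lymph node arrays, without overlap (-1.05 ± 0.28 SE, adjusted p = 0.0929 in limma). Lipa passed without spleen array 2 (-1.35, adjusted p = 0.0312) and with the replicate block (0.0398), and its difference was -0.49 with averaged probe sets (0.320). Of 7 genes that use isoprenoids for protein prenylation and dolichol, 0 passed in limma, with an unadjusted p under 0.05 for 1 higher and 1 lower gene and a median of -0.02. Of 9 other genes of fatty acid synthesis and activation, 0 passed, with a median of -0.07. An unadjusted p under 0.05 in limma was found for 2 higher and 1 lower gene. At that unadjusted p, 1152 of all 12394 genes were higher and 1208 lower. Over 11 genes of fatty acid oxidation the median was 0.17, with 1 called higher, against 2.03% of all genes, and 0 lower, against 1.37%. It was Acadl, an acyl-CoA dehydrogenase of mitochondria, with 7.36, 7.34 and 7.09 in spleen arrays, against 6.20, 6.37 and 6.44 in lymph node arrays (0.93 ± 0.16 SE, adjusted p = 0.0310), which passed in 1 of the 6 fits with 1 array left out.

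Markers of plasmacytoid DCs, taken as a set, and a technical control were also higher in spleen arrays. Plasmacytoid DC markers were called higher in spleen arrays for 3 of 8 genes, against 2.03% of all genes, and lower for 0. Their summed intensities were 1532 to 5114 in spleen arrays and 543.4 to 1180.0 in lymph node arrays. T cell markers were called higher for 1 of 7, against the same share of all genes, and lower for 0. Their sums were 321.6 to 799.6 in spleen arrays and 119.2 to 288.9 in lymph node arrays. The lowest T cell group mean was 1.73 on the log2 scale. The gene called was Cd28, a costimulatory receptor, at 8.29, 6.76 and 8.26 on the log2 scale in spleen arrays, against 3.19, 2.32 and 5.58 in lymph node arrays. Over all 7, the median deviation from the lymph node mean was 0.53 to 1.82 in spleen arrays and -0.62 to 0.69 in lymph node arrays, which overlapped, and Cd5 differed by -0.41. The part of these markers in the differences of the synthesis genes was not tested. The bacterial poly-A control transcripts, mean log2 level over 27 probe sets, were at 8.24, 7.71 and 8.29 in spleen arrays, against 6.82, 7.17 and 7.31 in lymph node arrays, without overlap, and with this design the control level and the organ cannot be told apart. NK cell sums of 407.6 to 1524 in spleen arrays and 367.4 to 855.7 in lymph node arrays overlapped, with 0 of 6 genes past the threshold in limma and 0 at an unadjusted p under 0.05, as did B cell sums of 98.8 to 149.3 and 76.9 to 118.5, with 0 of 5 and 0.

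Macrophage and neutrophil markers had lower sums in spleen arrays. The sums were 426.2 to 535.1 in spleen arrays and 765.5 to 899.8 in lymph node arrays for macrophages, with 0 of 7 genes past the threshold in limma. At an unadjusted p under 0.05 in limma, 2 of them, Cd68 and Adgre1, were lower, as were 1208 of all 12394 genes. Of the other macrophage markers C1qb was positive, at 1.30, and the median deviations of the 7 overlapped, at -0.65 to -0.35 in spleen arrays and -0.44 to 0.63 in lymph node arrays. For neutrophils the sums were 56.2 to 121.1 in spleen arrays and 169.9 to 707.9 in lymph node arrays. Of these 6 genes 1 was called lower, against 1.37% of all genes, and 0 higher. The lowest neutrophil group mean was 2.18 on the log2 scale. Proliferation genes, whose sums were 2157 to 3715 in spleen arrays and 2094 to 3343 in lymph node arrays, had a median difference of 0.08, with 0 of 9 past the threshold in limma and 0 at an unadjusted p under 0.05. Spleen array 3 was highest for the plasmacytoid DC markers. Of the synthesis genes called, it was lowest of its group for Idi1, Fdft1, Sqle and Elovl6 and highest for Hmgcs1. Of those not called, it was lowest for Fdps, Ggps1, Lss, Cyp51, Sc5d, Srebf1, Insig2, Stard4, Acly, Acaca and Scd1. It was highest for Mvk, Pmvk, Tm7sf2, Dhcr7, Scap, Fasn, Fads1 and Fads2.

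**Figure D4:**
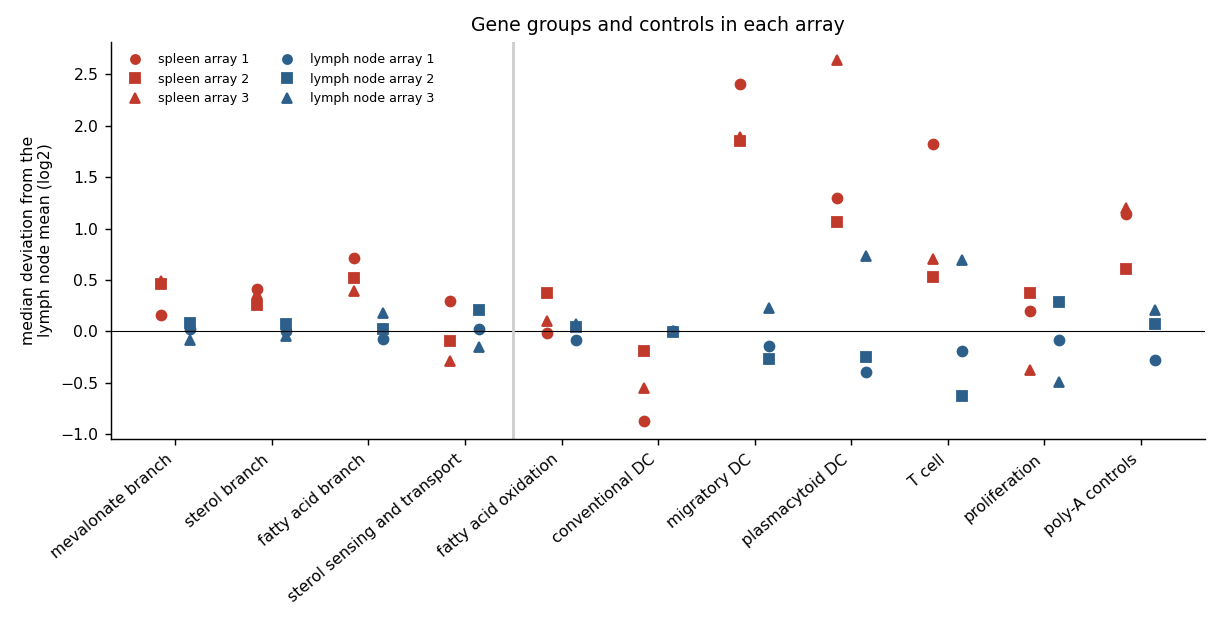
Median over the genes of each group of the deviation from the lymph node mean (y axis, log2) in each array, with the mean of the poly-A control probe sets at the right, spleen in red and lymph node in blue. The spleen arrays lie above the lymph node arrays for the mevalonate, sterol and fatty acid branches, for migratory and plasmacytoid DC markers and for the poly-A controls, and the groups overlap for sterol sensing and transport, for T cell markers and for proliferation.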

How the data were processed

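The authors deposited 1 table of probe set intensity (22690 probe sets, linear scale, 1 decimal). RMA and limma were named, without versions, in the submitters' processing notes, and any floor or rescaling of these values is not given in the sources used here. Carrier RNA was added at extraction and a small amount of RNA was amplified before hybridization, per the labels' protocols. Symbols came from the platform annotation, which gave 1 gene symbol for 20393 probe sets, and all 33 symbols matched a RefSeq gene table of GRCm38.p6. The deposited intensity was turned into log2, and the groups, taken from the sample titles, were compared (spleen minus lymph node) by limma 3.58.1 under R 4.3.3 (lmFit, eBayes, no filter, two-sided, Benjamini-Hochberg over 12394 genes, threshold 0.05). Folds are ratios of geometric means. Alternatives changed the scaling, the offset before log2, a filter on level, the variance model, the probe sets used, a replicate block, the arrays kept and the threshold. The functions were tested on simulated data.

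Values in every array were given for genes past the threshold, the 2 nearest to it and the lowest of each branch, and fixed genes of known role; of other pathway genes, those past it. Acss2, Fads2, Lbr, Lipa, Cd28, Cd5, Cd68, Adgre1 and C1qb were added after their values were seen. Genes and lists were chosen with earlier results of these data known.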

Additional observations from a re-analysis of the deposited data

How the results depend on the processing

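The numbers of genes called and the branch medians were recomputed in 15 other fits, and 0 of these called any of the 33 genes lower. With 1 array left out, the count over all genes lay between 47 and 475 (421 with all arrays), the count of the 33 genes called higher between 1 and 4, and the medians between 0.22 and 0.50 for mevalonate, 0.26 and 0.44 for sterol, 0.44 and 0.96 for fatty acid and -0.05 and 0.09 for sensing genes. The count of 5 was 3 when a gene's probe sets were averaged, 3 with the replicate block, 3 with a minimum of 2-fold and 2 at an adjusted p of 0.01, where 63 genes passed in all. It was 7 with log2 of the value plus 16. The median of the sterol genes was 0.30 with log2 of the value plus 16, 0.46 with a filter at the median level and 0.25 with averaged probe sets. That of the fatty acid genes was 0.46, 0.14 and 0.40 under the same settings. Without both arrays numbered 3 the mevalonate median was 0.18 and the fatty acid median 0.92. The cause was not tested. Of the 33 genes, 20 kept their sign in every fit that tested them, and the 13 that changed it in at least 1, none of them among the 5 called, were Mvk, Mvd, Ggps1, Nsdhl, Tm7sf2, Msmo1, Acly, Acaca, Fasn, Scd2, Srebf1, Scap and Stard4. Hmgcs1 (adjusted p = 0.0710) and Fdft1 (0.0566) lost their call with the replicate block. Deviations of same-numbered arrays from their group means correlated at 0.02, 0.24 and 0.16 across genes. Of 6 arrays, 4 correlated best with their own number in the other organ. Whether equal numbers mark pairs or a shared batch was not tested, and the main fit did not use the numbers. With the replicate block, 518 of all genes passed in place of 421. Median centring and a second quantile normalization moved the median of all genes to 0.01 and -0.03, and the first turned the sign of Nsdhl, which was not called.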
